A study of Arabidopsis thaliana with 6 samples.

Results

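The chloroplast genome of Arabidopsis was followed here in whole seedlings of the wild type (WT) and of the acinus-2 pnn double mutant. All rows whose identifier starts with ATCG were taken, which gave 133 of the 33602 gene rows and 24 of the 120998 intron rows. Both genotypes were Col-0 seedlings, grown in continuous light at 22 °C for 12 days according to the sample labels (the study's methods give an older age), and each genotype had 3 libraries (WT 2, 4 and 5, and acinus-2 pnn 6, 7 and 12). The mutant carries T-DNA insertions in AtACINUS and in AtPININ (pinin-1), which encode related nuclear proteins that bind RNA-processing complexes. Seedlings are mixtures of cell types, so that fewer plastids, fewer green cells and less RNA per plastid cannot be told apart. The study describes the libraries as biological replicates, the labels do not say what each was grown from, and p-values measure the spread between these libraries. They were made as mRNA libraries from extracted total RNA, and how mRNA was selected is not given in the sources used here. Chloroplast RNAs mostly lack long poly(A) tails, so the levels, the rRNA share and the chloroplast share are those of such libraries and not of the RNA in the plastid.

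Chloroplast DNA is a small circle left from the cyanobacterial ancestor of the organelle, and its genes are mostly arranged in operons that are transcribed together and then cut and spliced. A bacterial-type polymerase whose core subunits are the plastid rpo genes, helped by nuclear-encoded sigma factors, transcribes most photosynthesis genes, and phage-type polymerases encoded in the nucleus transcribe the rpo genes and some housekeeping genes. A large part of the circle is present in a pair of inverted repeat copies that hold the rRNA genes. Chloroplast introns belong mostly to group II and are removed inside the organelle by factors unrelated to the nuclear spliceosome.

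Reads on all genes ranged from 18890178 to 27622690 per library, and reads on chloroplast genes from 2444360 to 3126734. The labels were checked on the targeted genes. Exons 1 to 3 of AtACINUS (AT4G39680), numbered as in the exon table, held 853, 1300 and 1255 reads in WT 2, 4 and 5, but 0, 1 and 1 in acinus-2 pnn 6, 7 and 12. From exon 4 onward it held 1355, 1785 and 1840 reads in WT and still 891, 832 and 998 in the mutant. From exon 4 of AtPININ (AT1G15200) onward there were 704, 938 and 964 reads in WT and 380, 344 and 435 in the mutant, while exons 1 to 3 had 729, 897 and 905 in WT and more, 1826, 2221 and 2340, in the mutant. These numbers need not run from the start of a gene, since for the minus-strand chloroplast gene clpP the intron numbers ran against it. The counts by themselves therefore do not say which end of either transcript was reduced. The paper reports both transcripts as truncated in the mutant. In mutant protein, it detected N-terminal peptides of AtACINUS and none from beyond the insertion, and it detected neither N-terminal nor C-terminal peptides of AtPININ. The ATCG rows carry no gene names in the files, and their exon lengths, intron lengths and junction positions were matched to the RefSeq annotation of TAIR10.1. This named 113 rows, placed 101 of them at a single position, and left 16 tRNA rows, 2 rows that could each be petG or the first exon of rps12, and 2 rows with no match. The sources do not state that counting used strand, so reads from a gene and from antisense RNA over it could not be separated.

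Chloroplast genes took a similar share of all gene reads in both genotypes, and nearly all of these reads were rRNA. The chloroplast share of gene reads was 13.5%, 11.2% and 11.3% in WT 2, 4 and 5, and 12.1%, 11.8% and 10.5% in acinus-2 pnn 6, 7 and 12. The means were 12.0% ± 1.33 in WT and 11.5% ± 0.845 in the mutant (SD, n = 3 each, exact permutation test, 2-sided p = 0.7, where 3 against 3 cannot go below 0.1). The groups overlapped, and WT 2 alone lay above every other library. Without WT 2 the difference turned from -0.55 to 0.21 percentage points. With the rRNA genes left out, chloroplast genes held 1.13% ± 0.0569 of the reads in WT and 1.09% ± 0.0531 in the mutant (SD, n = 3 each, exact permutation test p = 0.5). For comparison, genes of the mitochondrial genome held 0.706% ± 0.0451 in WT and 0.784% ± 0.00606 in the mutant (SD, n = 3 each), where the groups did not overlap and the exact permutation p was the smallest possible, 0.1. The rRNA share of chloroplast reads was 92.4%, 91.5% and 90.9% in WT and 92.2%, 92.1% and 90.1% in the mutant, and these groups overlapped (exact permutation test p = 0.8). This high share bears on every chloroplast total, because rRNA reads decide it.

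**Figure D1:**
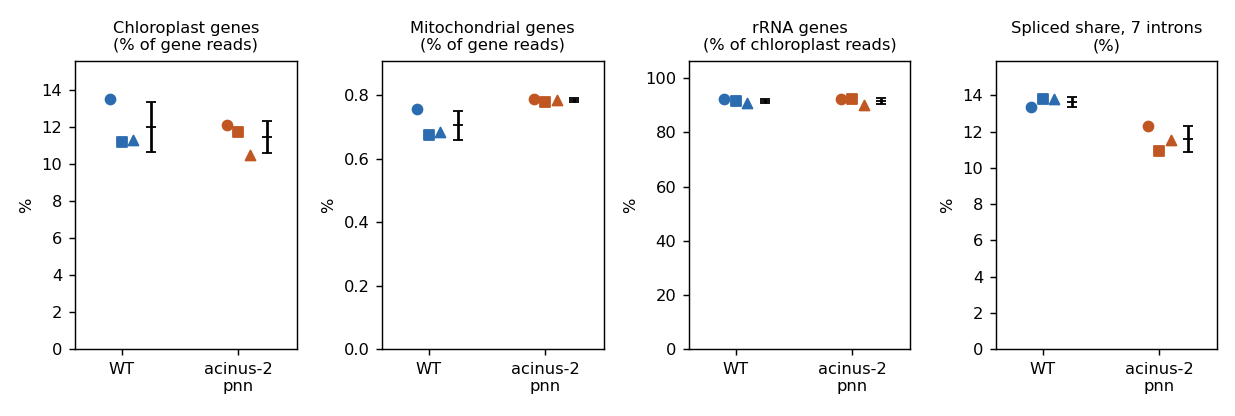
Percentages in each library for WT (blue) and acinus-2 pnn (orange), with the mean and SD of 3 libraries in black beside the points. From left to right: reads on chloroplast genes and on mitochondrial genes as a share of gene reads, rRNA as a share of chloroplast reads, and the spliced share of the 7 chloroplast introns with spliced reads. The chloroplast and rRNA shares overlap between genotypes, and the mitochondrial and spliced shares do not.

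Levels differed far more between genes than between genotypes. Given per length as RPKM (reads per kilobase of exon and 1000000 mapped reads), rrn16 and rrn23, the RNAs of the small and large ribosomal subunits, stood at the top with means over the 6 libraries of 10314 and 10281 for their first copies. Next came rbcL, the large subunit of the carbon-fixing enzyme Rubisco, at 1199 RPKM, and psbA, which encodes the D1 reaction centre protein of photosystem II, at 931 RPKM. The protein genes spanned a 357-fold range down to ccsA, a factor for attaching haem to cytochromes, at 3.36 RPKM. Rubisco and the photosystem genes took most of the chloroplast reads outside rRNA. rbcL alone held 21.5% to 22.2% of the non-rRNA reads in WT and 19.5% to 21.1% in the mutant, and the 15 photosystem II genes held 31.7% to 34.0% in WT and 28.3% to 31.6% in the mutant. Neither pair of ranges overlapped, but for photosystem II the gap was narrow, 31.69% in WT 4 against 31.64% in acinus-2 pnn 7. psbA, itself among these 15 genes, held 14.17%, 12.84% and 13.86% of chloroplast protein gene reads in WT 2, 4 and 5. In acinus-2 pnn 6, 7 and 12 it held 12.02%, 12.78% and 9.54%. Its part in the photosystem II share was not tested. The 5 photosystem I genes held 21.4% to 22.8% and 21.7% to 25.05%, which did overlap.

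Within the functional groups the order was steep at the top. In photosystem II, psbC, an antenna protein of the core, followed psbA at 531 RPKM, and the group ended with psbM at 29.1 RPKM. In photosystem I the reaction centre genes psaB and psaA had 426 and 399 RPKM. These means differ by less than the range of either gene over libraries, 380 to 498 RPKM for psaB and 348 to 463 for psaA. Within each library, however, psaB was the higher. In the ATP synthase, atpH, the membrane ring subunit, was highest at 259 RPKM and atpI lowest at 44.7. In the cytochrome b6f complex, petD and petB had 107 and 91.1 RPKM. The 12 rows of the NDH complex, which carries electrons around photosystem I, lay between 8.92 RPKM (ndhF) and 33.3 (ndhJ), with ndhK at 32.1. The ribosomal protein gene rps14 had 485 RPKM, close to psaB and psaA in whose operon it lies, while the median was 27.2 RPKM over all 14 rps rows and 48.1 over the 11 rpl rows. Of the rpo genes, rpoC2, rpoB and rpoC1 were among the lower protein genes at 9.83, 12.3 and 14.2 RPKM. rpoA stood higher at 22.5 RPKM. Reads on the short tRNA exons could belong to the tRNA or to longer RNAs that cross it, which was not tested.

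**Figure D2:**
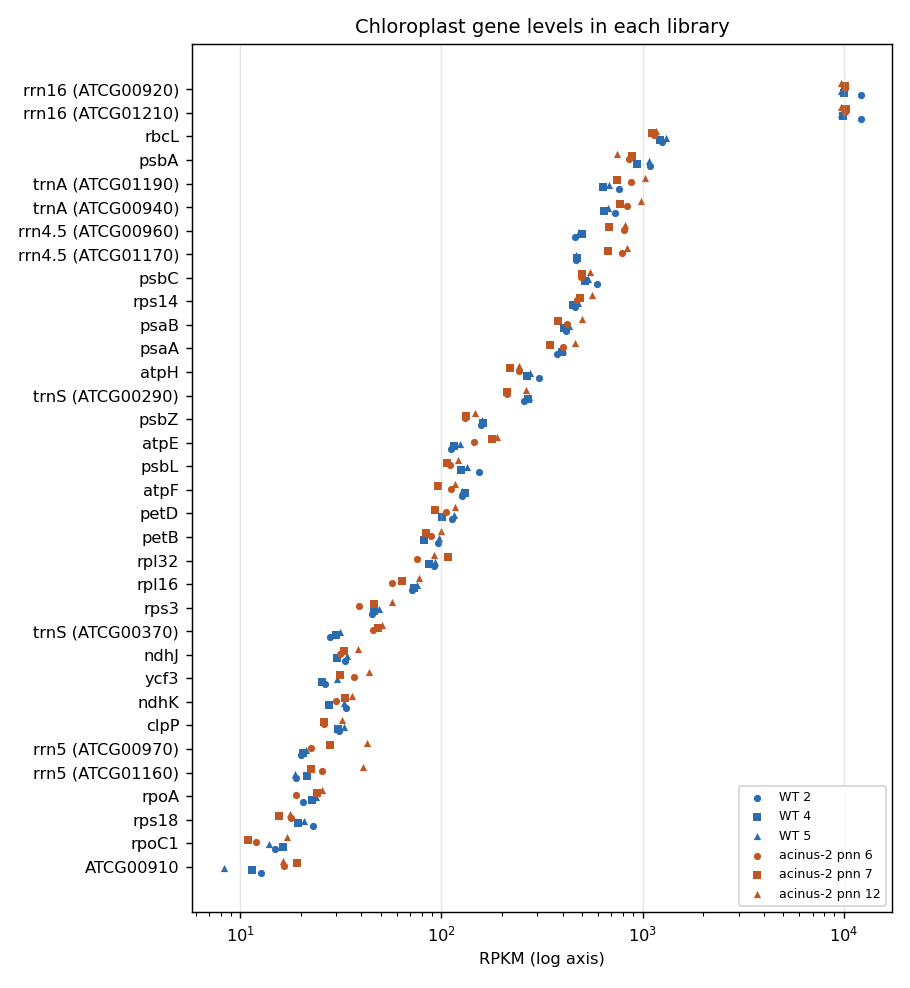
RPKM on a log axis for the 34 chloroplast rows named by the rule given in the processing notes, with 1 point per library (WT blue, acinus-2 pnn orange, shapes for libraries). Rows are ordered by mean from rrn16 (10314 RPKM) to the unnamed tRNA row ATCG00910 (14.04 RPKM), and in the rows of rrn4.5, atpE and trnS (ATCG00370) all mutant points lie to the right of the WT points.

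No tested chloroplast row had a fitted change above 2-fold. Of 133 rows, 123 had enough reads for the test and the other 10 were all tRNA rows with at most 52 reads in sum. One of those, ATCG00230, had mean RPKM of 1.14 in WT and 2.92 in the mutant on 25 reads in all. At the study's thresholds (adjusted p under 0.02 and fold change above 2, here with edgeR's quasi-likelihood test) 0 chloroplast rows were higher and 0 lower in acinus-2 pnn, against 4.29% and 4.88% of the 20962 genes tested. DESeq2 also gave 0 in each direction, and 34 chloroplast rows had an unadjusted p under 0.05 in edgeR. Among the 123 rows, 112 had an absolute log2 fold change under 0.5, and the median was 0.03 beside 0.00 over all genes tested. At an adjusted p under 0.05 with no fold threshold, 17 rows were higher (13.8% of the rows tested, against a background of 22.5%) and 9 were lower (7.32%, against 23.6%). In normalised counts, 18 rows were higher with no overlap between genotypes, against 27% of all genes, and 10 were lower, against 28.2%. Each of these shares was below that of the whole table. DESeq2 gave 15 higher and 7 lower. The 17 higher rows include both repeat copies of rrn4.5, rrn5, trnI, trnA and ycf2. When the repeat copies were summed into single rows, 12 rows were higher and 11 lower (edgeR). The highest log2 fold change, 0.92, belonged to an unnamed tRNA row (ATCG00460) that did not pass (adjusted p = 0.052, edgeR).

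How many rows pass as lower depends on what the counts are scaled to. The split was 17 higher and 9 lower with TMM over all genes, 13 and 0 when library size was set to chloroplast reads, and 20 and 2 when it was set to reads on chloroplast protein genes, a scaling added after the data were seen. None of the 26 called rows changed sign under those scalings. The higher rows that lost their call against chloroplast reads were petA, both copies of ycf2 and the tRNA row ATCG00910. Single libraries also mattered. Without WT 4 the counts were 11 higher and 15 lower, without WT 5 they were 15 and 4, without acinus-2 pnn 7 they were 16 and 5, and without acinus-2 pnn 12 they were 12 and 16. With any 1 library left out in turn, 11 of the 17 higher rows and 3 of the 9 lower rows passed every time.

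**Figure D3:**
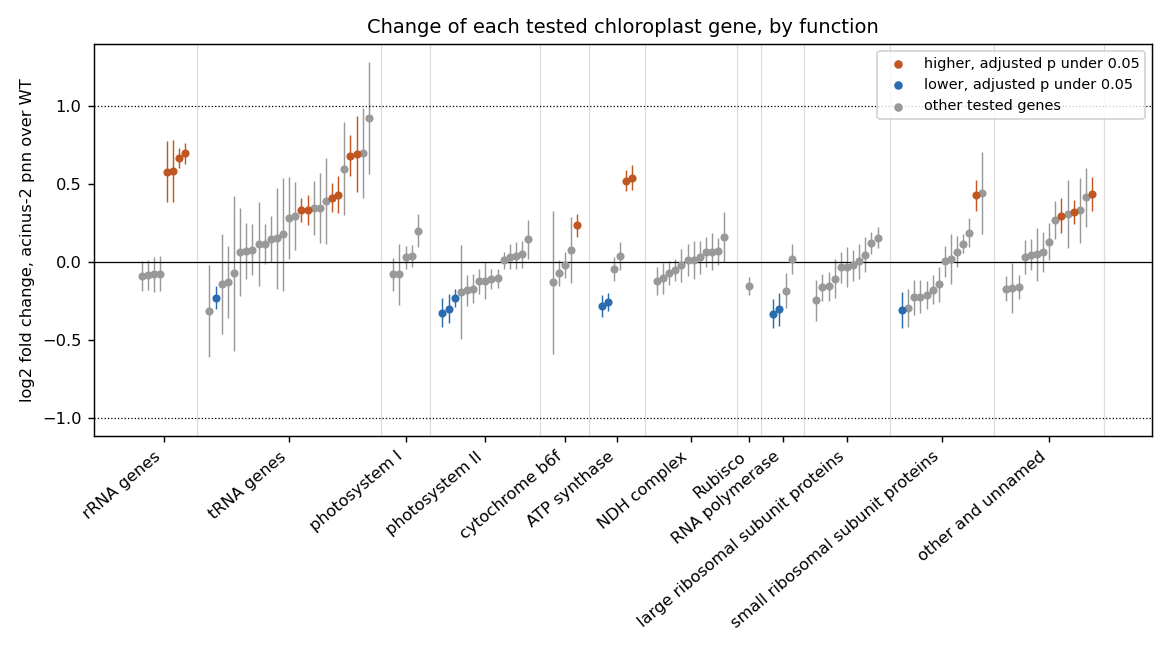
Log2 fold change of acinus-2 pnn over WT for the 123 tested chloroplast rows, sorted within functional groups, with standard errors from the edgeR fit. Orange and blue points mark the 17 higher and 9 lower rows at an adjusted p under 0.05, grey points the rest, and dotted lines mark 2-fold changes, which no row reaches.

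The clearest rises were in the rRNA operon, where reads on the small rRNA and spacer tRNA genes rose while the large rRNAs did not pass the test. The operon runs in the order rrn16, trnI, trnA, rrn23, rrn4.5 and rrn5, and is cut from a long precursor. Over the 6 libraries the first copies of rrn4.5 and rrn5 had means of 624 and 25.7 RPKM, against 10281 for rrn23. Reads on the short genes could belong to the mature RNAs or to the precursor, which was not tested. rrn4.5, a small RNA of the large ribosomal subunit, had 459, 500 and 483 RPKM in WT and 805, 681 and 818 in the mutant at its first copy (ATCG00960). The genotypes were well separated at this gene. Its log2 fold change was 0.67 ± 0.06 (SE, adjusted p = 4.5e-06, edgeR), and the other copy (ATCG01170) gave 0.70 ± 0.07. The tRNA genes trnI and trnA, which read isoleucine and alanine codons, rose by 0.43 ± 0.12 and 0.33 ± 0.08 at their first copies (adjusted p = 0.0092 and 0.0037, edgeR), with mutant 12 highest in both. The second trnA copy (0.34) did not pass without WT 4 (adjusted p = 0.058, edgeR) or without acinus-2 pnn 12 (0.066). rrn16 and rrn23 had log2 fold changes of -0.09 ± 0.10 and -0.07 ± 0.11.

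rrn5 was higher too, but its call was lost when any of several single libraries was left out. Its first copy (ATCG00970) had 20.03, 20.4 and 21.2 RPKM in WT and 22.3, 27.9 and 42.4 in the mutant. The groups did not overlap, but acinus-2 pnn 12 lay far above the other mutant libraries. The log2 fold change of 0.58 ± 0.20 (adjusted p = 0.030, edgeR) did not pass without acinus-2 pnn 12 (adjusted p = 0.186) or without any WT library (0.060, 0.080 and 0.058 without WT 2, 4 and 5), and the other copy behaved alike with 0.180 without acinus-2 pnn 12. Measured against the large rRNA of the same library, rrn4.5 gave 1.45, 1.80 and 1.76 reads per 1000 rrn23 reads in WT and 2.69, 2.41 and 3.41 in the mutant. Reads on the trnI and trnA introns gave 10.7, 11.3 and 12.0 per 1000 rrn23 reads in WT and 13.3, 12.9 and 19.9 in the mutant. Both ratios were higher in every mutant library than in every WT library, with the exact permutation p at its minimum of 0.1.

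**Figure D4:**
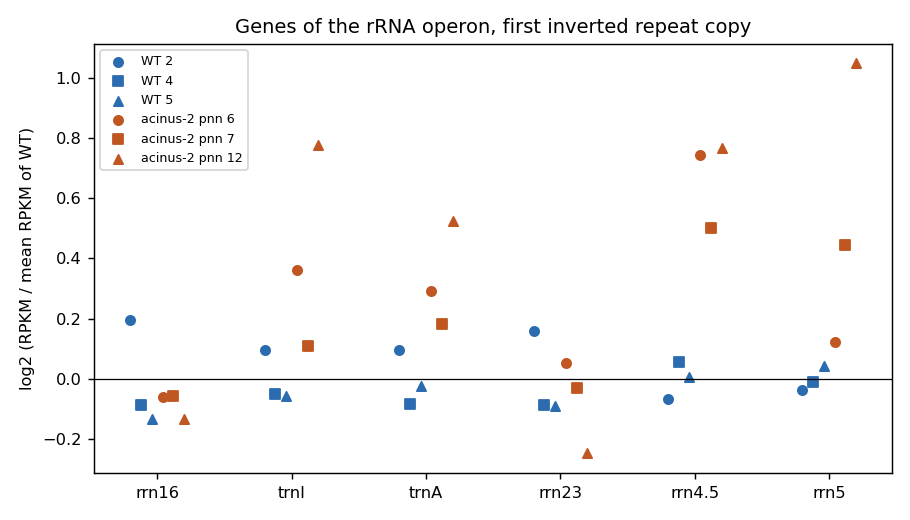
Log2 of RPKM over the mean RPKM of WT for the 6 genes of the rRNA operon in transcription order, 1 point per library (WT blue, acinus-2 pnn orange). rrn4.5 is higher in all 3 mutant libraries, trnI and trnA are higher with acinus-2 pnn 12 on top, and rrn16 and rrn23 overlap.

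The inverted repeat copies shared their reads almost evenly where they could be paired. For the 14 pairs of rows that could be matched by name or structure, the first copy held from 48.3% to 51.3% of the reads in the 11 pairs with over 1000 reads on that copy, 50.01% for rrn16 and 50.04% for rrn23. The lowest pooled value, 37.3%, belonged to a trnL pair with 19 and 32 reads. Among these pairs the log2 fold changes of the copies differed by at most 0.12, and the 13 that were tested received the same call on both copies, 5 of them as changed (rrn4.5, rrn5, trnI, trnA and ycf2). Short tRNA rows with no single name were not paired, and those of equal length in mirrored order differed more: ATCG00910 and ATCG01220 had 0.69 and 0.07, of which only the first passed, and trnR (ATCG00980) and ATCG01150 had 0.18 and 0.70, neither of which passed. A read from either copy fits both, so the copies are not independent measurements. The near-even split and the same calls on both copies therefore show how reads were placed, not how each copy was expressed. With the copies summed into a single row, rrn4.5 gave 0.68 ± 0.06, rrn5 0.58 ± 0.17, trnI 0.42 ± 0.10, trnA 0.33 ± 0.08 and ycf2 0.31 ± 0.09. The summed row of rps12, a protein of the small ribosomal subunit, then passed as lower (log2 fold change -0.23 ± 0.08, adjusted p = 0.034, edgeR), which neither copy did alone.

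Outside the repeats, a run of neighbouring rows next to psaA was higher in the mutant. The tRNA gene trnS of row ATCG00370 (Pltd:44827-44913, plus strand, a single exon of 87 bases) had 27.9, 29.9 and 31.1 RPKM in WT and 45.5, 48.3 and 50.3 in the mutant. The groups were well apart, and the log2 fold change was 0.68 ± 0.13 (adjusted p = 0.00095, edgeR). It lies between ycf3 and rps4, both on the minus strand. ycf3 (Pltd:42584-44591), an assembly factor of photosystem I, had 26.4, 25.4 and 30.2 RPKM in WT and 36.8, 31.5 and 43.7 in the mutant. The log2 change was 0.44 ± 0.11 (adjusted p = 0.0066, edgeR). rps4 (Pltd:45223-45828), a protein of the small ribosomal subunit, had 17.5, 18.2 and 22.0 RPKM in WT and 24.6, 25.03 and 29.0 in the mutant, a log2 fold change of 0.43 ± 0.10 (adjusted p = 0.0038, edgeR). All 3 rows passed whichever library was left out. An unnamed tRNA row, ATCG00910, whose identifier falls between those of the repeat genes rps12 and rrn16, had a log2 fold change of 0.69 ± 0.24 on a mean of 28.2 reads, and lost its call without WT 4, WT 5, acinus-2 pnn 6 or acinus-2 pnn 7 (adjusted p = 0.074, 0.139, 0.066 and 0.113, edgeR). The row of equal length between the same genes in the other repeat copy, ATCG01220, had 0.07 ± 0.28 and did not pass (adjusted p = 0.86).

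The genes of the ATP synthase, which makes ATP from the proton gradient across the thylakoid membrane, did not move together. Of 6 rows, 2 were higher, 2 lower and 2 did not pass, against 22.5% higher and 23.6% lower over all genes tested. Counts over so few rows cannot be set apart from those shares. atpB and atpE, which encode the beta and epsilon subunits of the catalytic head and share an operon and a few bases of sequence, were the higher ones. atpB (Pltd:52660-54156, minus strand) had 112, 111 and 123 RPKM in WT and 153, 163 and 185 in the mutant. The groups did not overlap, and the log2 fold change was 0.52 ± 0.07 (adjusted p = 4.9e-05, edgeR). atpE gave 0.54 ± 0.08 (adjusted p = 0.00019), with 9.13% to 10.5% of its reads shared with another gene. The divergently placed neighbour rbcL (Pltd:54958-56397, plus strand) had a log2 change of -0.15 ± 0.06 at the edge of the threshold (adjusted p = 0.052, edgeR), and its RPKM did not overlap between genotypes. It passed as lower with DESeq2 (0.031), with no filter (0.031), with repeat copies summed (0.0496) and without WT 4 (0.011), and the adjusted p was 0.054 or more in the other settings. Both genes enter the ratio, in which atpB had 92.7, 95.2 and 97.9 reads per 1000 rbcL reads in WT and 140, 152 and 165 in the mutant.

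The other ATP synthase operon leaned the other way. It holds rps2, atpI, atpH, atpF and atpA in transcription order. atpH had 307, 266 and 277 RPKM in WT and 243, 218 and 243 in the mutant, and fell by 0.28 ± 0.07 on the log2 scale (adjusted p = 0.0065, edgeR). atpF, a stalk subunit, had 127, 131 and 126 RPKM in WT and 111, 96.3 and 117 in the mutant, and fell by 0.26 ± 0.06 (adjusted p = 0.0038). Both rows passed whichever library was left out, but neither passed when library size was set to chloroplast reads, where the log2 fold changes were -0.20 for atpH and -0.18 for atpF. atpA, the alpha subunit that pairs with the beta subunit, had a log2 fold change of -0.04 ± 0.08, and atpI 0.04 ± 0.09. The ratio of atpB to atpA reads was 1.26, 1.12 and 1.23 in WT and 1.61, 2.03 and 1.73 in the mutant, higher in every mutant library (exact permutation p = 0.1, the smallest possible).

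Photosystem genes had log2 fold changes from -0.32 to 0.15 in photosystem II and from -0.08 to 0.20 in photosystem I. Of the 15 photosystem II rows, 3 were lower and none higher, and of the 5 photosystem I rows none passed. Over all genes tested, 23.6% were lower and 22.5% higher, so the count of lower photosystem II rows was near that background. psbA had 1086, 939 and 1074 RPKM in WT and 855, 885 and 748 in the mutant. The log2 change was -0.32 ± 0.09 (adjusted p = 0.013, edgeR), it did not pass without WT 5 (adjusted p = 0.060) or without acinus-2 pnn 12 (0.055), and with DESeq2 the adjusted p was 0.059. psbZ, a small core protein, fell by 0.23 ± 0.06 on the log2 scale (adjusted p = 0.0069, edgeR) from 157, 162 and 158 RPKM in WT to 131, 132 and 146 in the mutant. The tRNA gene trnS of row ATCG00290 lies between psbC and psbZ on the opposite strand, and it gave the same log2 fold change of -0.23 ± 0.08. That call was lost without WT 5, acinus-2 pnn 6 or acinus-2 pnn 7 (adjusted p = 0.113, 0.091 and 0.095, edgeR). Where strand is not used, its reads cannot be told from those of RNA that runs from psbC to psbZ. psbD and psbC, in the same operon, did not pass at 0.01 ± 0.05 and -0.10 ± 0.06. psbL, in the psbE operon, had -0.30 ± 0.09 (adjusted p = 0.019, edgeR), with 30.3% to 39.4% of its reads shared with a neighbour, and lost its call without WT 2, WT 5 or acinus-2 pnn 7 (0.058, 0.055 and 0.067).

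The psaA operon (psaA, psaB and rps14) gave 0.03 ± 0.07, 0.04 ± 0.07 and 0.12 ± 0.06, and none of the 5 genes of the psbB operon passed, with log2 fold changes from -0.12 to 0.03. None of the 12 NDH rows passed, with values from -0.12 to 0.16, against 22.5% higher and 23.6% lower over all genes tested. petA, which encodes cytochrome f, was the only cytochrome b6f row to pass, at 0.24 ± 0.07 (adjusted p = 0.018, edgeR). It did not pass without WT 4 (0.080) or acinus-2 pnn 12 (0.087). Its operon partners psaI, ycf4 and cemA did not pass.

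A short list of genes known to be read by the nuclear-encoded polymerase had calls in both directions. The list held rpoB, rpoC1, rpoC2, accD and ycf2, the last in both repeat copies. Of its 6 rows, 2 were higher (the copies of ycf2) and 2 lower, against 22.5% and 23.6% of all genes tested. So few rows cannot be set apart from those shares. rpoB, a core subunit of the plastid polymerase, had 14.3, 13.0 and 13.7 RPKM in WT and 10.2, 9.499 and 13.2 in the mutant. acinus-2 pnn 12 reached the WT range and the other mutant libraries lay below it. The log2 fold change was -0.33 ± 0.09 (adjusted p = 0.011, edgeR), and it did not pass without acinus-2 pnn 7 (0.055). rpoC2 gave -0.30 ± 0.10 (adjusted p = 0.032, edgeR), lost without WT 5, acinus-2 pnn 6 or acinus-2 pnn 7 (0.125, 0.094 and 0.134), and rpoC1 gave -0.18 ± 0.11 (0.20). The fourth core gene, rpoA, lies in the ribosomal protein operon that starts at rpl23, and had 0.02 ± 0.10. accD, a subunit of the carboxylase that starts fatty acid synthesis, had 0.07 ± 0.13. ycf2, part of a protein import motor, was higher at both copies by 0.30 ± 0.11 and 0.32 ± 0.08 (adjusted p = 0.046 and 0.0054, edgeR). The first copy lost its call without WT 2, WT 4, acinus-2 pnn 6 or acinus-2 pnn 12 (0.152, 0.097, 0.131 and 0.158).

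Few ribosomal protein rows passed. None of the 11 rpl rows did, with log2 fold changes from -0.24 to 0.16, and of the 14 rps rows rps4 was higher and rps18 lower. Over all genes tested, 22.5% were higher and 23.6% lower. In normalised counts, 4 rps rows were lower with no overlap between genotypes and 1 was higher, against 28.2% and 27% of all genes. The 4 were rps18, both copies of rps12, and rps2 (log2 fold change -0.21 ± 0.09, adjusted p = 0.071, edgeR). rps18 had 22.9, 19.3 and 20.8 RPKM in WT and 17.8, 15.5 and 17.6 in the mutant. Its log2 fold change of -0.31 ± 0.12 (adjusted p = 0.045, edgeR) did not pass without WT 2, WT 5 or any mutant library (0.146, 0.122, 0.050, 0.130 and 0.1003). Among the 37 tRNA rows 27 were tested, of which 6 were higher and 1 lower, against 22.5% and 23.6% of all genes, and the median log2 fold change was 0.28. Of the 6, 4 were the repeat copies of trnI and trnA. matK, the intron-encoded maturase for plastid splicing, had 16.8, 15.0 and 17.9 RPKM in WT and 15.8, 22.1 and 22.7 in the mutant, which overlapped (0.27 ± 0.12, adjusted p = 0.083, edgeR).

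The 24 chloroplast intron rows, 19 introns of which 5 occur in both repeats, split into a set with spliced reads and a set with none. Reads joined from exon end to exon end were found over 7 introns, 3524 reads in all 6 libraries together. For clpP intron 2 a shift of 2 bases was allowed, as given below. Over the other 17 rows there were 0, although those rows held 169437 of the 188470 intron reads. Reads that joined the same exons at other positions were not counted as spliced. They numbered up to 48 in the 17 rows (trnK 48, rpl16 45) and up to 15 in the 7 introns. The presence of spliced reads followed the bases at the intron ends, and these sequences are shown for that reason. Each line gives the last 20 bases of the intron and the first 10 bases of the next exon, read along the gene from RefSeq (TAIR10.1), with the last 2 intron bases in capitals and the position of the whole intron. The first lines are the introns with spliced reads.
atpF (Pltd:11939-12653, minus strand): gaaagataatctactttcATtaaatgattt
petD (Pltd:76489-77197, plus strand): aagaattcacctatcccaATaacaaaaaaa
petB (Pltd:74847-75650, plus strand): cttggtttacctatctcaATaaagtttatg
rpoC1 (Pltd:21862-22652, minus strand): atagtggaccctatcccaATttttcttttg
clpP intron 1 (Pltd:70945-71811, minus strand): gaataaaaaattatcctaATcaaccgactt
ndhA (Pltd:120377-121456, minus strand): atgttctcgccgactaggATtatctaacag
clpP intron 2, at the junction found in the reads (Pltd:70136-70650, minus strand): cttttctattatatcatcAGggtaatgatc
The next lines are introns that begin with the same bases GT but held 0 reads joined from exon end to exon end.
rps16 (Pltd:5284-6148, minus strand): tcatatacatctatcccaACgagccgttta
ycf3 (Pltd:42737-43523, minus strand): attgatccgcctattccgACcgtggagaac
trnV (Pltd:51234-51832, minus strand): ataagttcgaactcttttACcgagcaggtc
rpl16 (Pltd:81588-82643, minus strand): ttagaaccatcaactataACccaaaaagaa
ndhB, first copy (Pltd:95703-96387, minus strand): atcctcttttcgactctgACtctcccactc
rps12, first copy (Pltd:98025-98561, minus strand): tctttcgagatccaccctACaatatggggt
trnK (Pltd:1752-4310, minus strand): aaggagattatctactccATccgactagtt

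Of 7 introns with the ends GT and AT, 6 had spliced reads, and all 8 rows with the ends GT and AC had none. clpP intron 2 is annotated with other ends, and its junction in the reads was shifted by 2 bases, to ends GC and AG. The remaining rows (trnG, trnL, trnI, trnA and rpl2) had other end pairs and no spliced reads. trnK, the exception, joins short tRNA exons and holds matK inside its intron, and 52.9% to 58.8% of its intron reads were shared with that gene. STAR, the aligner the study used for gene counts, was set to drop junctions whose ends are outside a few accepted pairs, and GT with AT (the complement of AT with AC) and GC with AG are among those pairs. Whether that setting applied to the tables used here is not given in the sources, and its part in the 0 counts was not tested. A count of 0 here therefore says nothing on whether these introns were spliced in the seedlings.

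No chloroplast intron changed detectably relative to its exons. Intron reads were set against reads on the neighbouring exons of the same library, and the change of that ratio was fitted with edgeR over 25523 introns. 0 of the 24 chloroplast introns had a higher ratio and 0 a lower ratio at an adjusted p under 0.05 and a fold above 2, against 0.956% and 0.157% of all introns tested, and with no fold threshold both counts were again 0, against 0.968% and 0.192%. None had an unadjusted p under 0.05, and DESeq2 also gave 0. The log2 changes ran from -0.13 (rps16) to 0.31 (ndhA) with standard errors from 0.15 to 0.35, and the lowest adjusted p was 0.57. The median was 0.00, beside -0.03 for all introns. Small changes were not detectable at errors of this size. Introns of trnI and trnA held the most reads. The trnI intron of the first copy had 146, 134 and 145 reads per 1000000 gene reads in WT and 176, 162 and 225 in the mutant, and the trnA intron 277, 239 and 261 in WT and 318, 293 and 368 in the mutant. Both were higher in every mutant library, as were the exons beside them, and the ratios to exon reads had log2 changes of -0.03 ± 0.16 and -0.01 ± 0.15.

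Over the introns with spliced reads, the spliced share was somewhat lower in the mutant. The spliced share was taken as spliced reads over the sum of spliced reads and intron reads per 1 kb of intron. Summed over all 24 rows it was 1.02%, 1.14% and 1.12% in WT and 0.824%, 0.752% and 0.767% in the mutant. Most rows add only intron reads to these sums, those of trnI and trnA above all, and the spliced reads of petB enter only the finer junction table used for the next values. Over the 7 introns with spliced reads, a choice of introns made after the data were seen, it was 13.3%, 13.8% and 13.8% in WT and 12.3%, 10.9% and 11.6% in the mutant, with means of 13.6% ± 0.275 and 11.6% ± 0.698 (SD, n = 3 each). The groups did not overlap in either form, and the exact permutation p was 0.1, the smallest possible. When spliced reads replaced exon reads in the edgeR fit, only 4 chloroplast introns had enough of them, and the lowest adjusted p was 0.75.

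Among the 7 introns, 2 had a lower spliced share in every mutant library than in every WT library and 0 a higher one, against 8.99% and 7.52% of all introns with spliced reads. Both lie in clpP, which encodes the proteolytic subunit of the Clp protease. clpP intron 1 had 18, 27 and 27 spliced reads in WT and 9, 11 and 14 in the mutant, giving spliced shares of 5.52%, 6.55% and 4.72% and of 2.62%, 3.29% and 2.92%. Its intron reads were 267, 334 and 473 in WT and 290, 280 and 404 in the mutant. clpP intron 2 had spliced shares of 14.7%, 16.9% and 13.2% in WT and 12.5%, 9.13% and 12.5% in the mutant. The intron reads of clpP relative to its exons had log2 changes of 0.19 ± 0.19 and 0.22 ± 0.20, which did not pass. atpF, the intron with the most spliced reads, had 20.2%, 22.4% and 23.4% in WT and 20.8%, 18.2% and 18.6% in the mutant, which overlapped. petD had 18.3%, 16.9% and 19.3% in WT and 17.9%, 18.4% and 20.9% in the mutant, and petB, ndhA and rpoC1 overlapped as well.

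**Figure D5:**
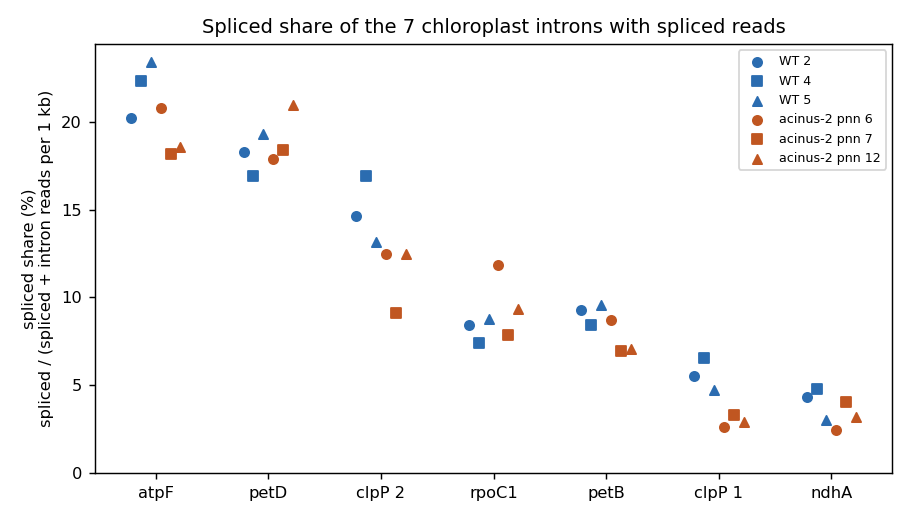
Spliced share in percent for the 7 chloroplast introns with spliced reads, 1 point per library (WT blue, acinus-2 pnn orange). Only the introns of clpP show no overlap between genotypes, and petD and rpoC1 have higher means in the mutant.

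Nuclear genes for plastid RNA also stayed under 2-fold. Of 20 genes for plastid transcription, 13 were higher and 2 lower at an adjusted p under 0.05 (median log2 fold change 0.27, beside 0.00 over all genes), against 22.5% and 23.6% of all genes tested, and none passed the study's 2-fold rule. The examples that follow were picked after their values were seen. FLN1, a kinase-like protein bound to the plastid polymerase, had 12.0, 12.4 and 11.5 RPKM in WT and 22.1, 19.7 and 22.4 in the mutant (0.83 ± 0.06, adjusted p = 6.5e-07, edgeR). SIG5, a sigma factor known to act on the psbD light-responsive promoter, had 15.5, 16.02 and 14.3 RPKM in WT and 10.3, 10.1 and 9.89 in the mutant (-0.60 ± 0.07, adjusted p = 1.3e-05, edgeR). SIG1 was the other lower gene, at -0.50 ± 0.05. psbD itself did not pass, as given above.

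Of 15 nuclear genes for plastid intron splicing, 6 were higher and 1 lower (median 0.09), against the same 22.5% and 23.6%. WTF1, which acts with a ribonuclease III-like protein in group II splicing, had 13.9, 12.6 and 12.5 RPKM in WT and 21.4, 22.7 and 21.8 in the mutant (0.75 ± 0.07, adjusted p = 3.5e-06, edgeR). PPR4, known from maize for splicing of rps12 RNA, was the lower one at -0.22 ± 0.05. Of 10 genes for plastid RNA processing and stability, 3 were higher and 3 lower (median 0.00), close to those background shares in both directions. The lower ones were CSP41A, CSP41B and HCF107. CSP41B, an RNA-binding protein of the chloroplast, had 299.9, 308 and 289 RPKM in WT and 202, 184 and 204 in the mutant (-0.61 ± 0.05, adjusted p = 8.8e-07, edgeR). HCF107, known to stabilise RNA that starts at psbH, had -0.52 ± 0.07, while psbH itself had 0.03 ± 0.08.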

How the data were processed

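Seedling mRNA libraries (NEBNext kit, from extracted total RNA) were sequenced and mapped to TAIR10 by the authors, and the submitters' notes name STAR and DESeq2. Per the file headers and methods, the RACKJ package made the tables. The deposited gene, exon and intron values were expected counts, which held fractions where reads were shared, as between overlapping genes. Reads on the repeat copies of rrn16 were not split in this way. Their shared percentage was 0, and the copies had whole, unequal counts (418229 and 417887 in WT 2). The deposited splice tables held counts of spliced reads. The RPKM values were computed by the authors per kilobase of exon and 1000000 mapped reads. The deposited fraction of reads shared between genes or places was used as a percentage.

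From these files, expected counts were rounded, filtered with filterByExpr, scaled by TMM and tested across all genes with edgeR 4.0.16 (quasi-likelihood, R 4.3.3, Benjamini-Hochberg adjustment), with DESeq2 1.42.0 as an alternative. Fold changes are acinus-2 pnn over WT, and standard errors came from the F statistic. Introns with at least 10 reads were tested as intron against exon reads in 1 model. Shares were compared by an exact 2-sided permutation test (scipy 1.17.1). The fits were tested on simulated data. Gene names came from matching row structures to 129 RefSeq chloroplast genes, and 126 rows matched exactly in length. The text names the 2 rows of highest mean RPKM in each functional group and the 6 largest changes in each direction among rows with an adjusted p under 0.05, no overlap and a mean of 20 reads. Other rows that passed, operon partners and nuclear examples were named after their values were seen. The members and lists were chosen with earlier results of these data known. Alternatives changed the scaling, filter, tool, repeat copies, junction source and libraries.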

Additional observations from a re-analysis of the deposited data

How the results depend on the processing

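Counts of chloroplast rows that passed at an adjusted p under 0.05 (17 higher and 9 lower with edgeR) changed with the scaling. The lower rows numbered 0 with library size set to chloroplast reads and 2 with chloroplast protein gene reads, which was added after seeing the data. Summing the repeat copies gave 12 higher and 11 lower rows. With single libraries left out, the higher rows ranged from 11 to 20 and the lower rows from 4 to 16. The chloroplast share of reads differed by -0.97 to 0.21 percentage points with single libraries left out, and the rRNA share of chloroplast reads by -0.50 to 0.52. The spliced share over all introns differed by -0.35 to -0.29. For the 34 genes named by rule, 384 values under alternatives kept their side of the threshold, 46 no longer passed, 8 newly passed and 0 called values reversed. The causes were not tested. No paired analysis was possible because the genotypes share no replicate numbers. Spliced reads over the chloroplast introns numbered 424 to 780 per library, which limits the precision of the spliced share.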
